A study of Mus musculus with 9 samples.

Results

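NF-kB is a family of transcription factors, and the 10 genes described here encode its 5 subunits and 5 of its inhibitor proteins in the mouse. The subunit genes are *Nfkb1*, *Nfkb2*, *Rela*, *Relb* and *Rel*, and the inhibitor genes are *Nfkbia*, *Nfkbib*, *Nfkbie*, *Nfkbiz* and *Bcl3*. All 10 were found among the 54059 genes of the deposited expression table, and 10 of 10 passed the filter for testing, a mean of at least 1 FPKM over the 9 libraries, which left 11450 genes.

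RNA was sequenced from adherent peritoneal macrophages of C57BL/6 mice, in 3 groups with 3 libraries each, to find genes that depend on the tyrosine phosphatase SHP2. The WT group held macrophages of wild-type mice treated with imiquimod (IMQ), a ligand of Toll-like receptor 7 (TLR7). The M-Shp2-/- group held macrophages, also treated with IMQ, of mice in which *Ptpn11*, the gene of SHP2, is deleted by a Cre recombinase driven by *Lyz2*, which acts in myeloid cells. The SHP099 group held wild-type macrophages given the SHP2 inhibitor SHP099 before IMQ.

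By the labels, all mice were 8 weeks old and had received starch broth (1 ml) in the peritoneum 3 days before their cells were taken. From the text and legends of the study, IMQ was given for 4 h. The legend of the SHP099 comparison puts it at 10 µg/ml, with SHP099 at 10 µM for 2 h before it, and no dose of IMQ was found for the sequenced M-Shp2-/- cells. Every library therefore came from stimulated cells, and with no unstimulated group the induction of a gene by IMQ could not be measured. The labels do not say whether the replicates of a group were separate animals, so that the p values given here measure only the spread between these libraries. The reads behind the normalization numbered 44372186, 50980958 and 42530943 in WT replicates 1 to 3. They numbered 43183606, 41151768 and 45590675 in M-Shp2-/- and 43892869, 39842545 and 43836693 in SHP099. The fewest reads recovered for any of the 10 genes in a library were 1209, for *Bcl3* in an SHP099 library.

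NF-kB acts as a dimer of subunits that is held in the cytoplasm of resting cells by IkB proteins. Receptors such as TLR7 signal through MyD88 and the IKK kinases to have IkB degraded, and the freed dimers enter the nucleus of the macrophage and switch on genes of inflammatory cytokines. Several of the subunit and inhibitor genes are themselves targets of NF-kB, so that the pathway feeds back on its own components.

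Levels are given as FPKM, a measure scaled by the reads of the library and by gene length, and levels of different genes are compared on this scale. The length that fits these values is the mean over the annotated transcripts of a gene, from 768 bases for *Bcl3* to 7466 for *Rel*, so that the order of the genes and their shares of a sum depend on it. By recovered reads, not scaled by length, *Rel* (at least 6602 in a WT library) stood above *Bcl3* (at least 2819), the reverse of their order in FPKM. Fold changes are differences of the mean log2(FPKM + 1) and were tested with limma in the 6 libraries of the groups compared, with p adjusted over all 11450 genes. Calls were made where the adjusted p did not exceed 0.05, and also by the thresholds of the study, which were an adjusted p up to 0.005 together with a log2 fold change of 1 or more in size. The study applied these thresholds to read counts with DESeq. The calls given here come from another test on FPKM and do not repeat those of the study. An exact permutation test of 3 libraries against 3 cannot give a two-sided p below 0.1 and was not used for calls.

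*Ptpn11* itself (ENSMUSG00000043733, chromosome 5, 121130533 to 121191397, GRCm38) was measured at 45.8, 44.0 and 40.0 FPKM in the WT libraries, at 18.6, 17.8 and 18.9 FPKM in the M-Shp2-/- libraries and at 43.0, 42.1 and 39.6 FPKM in the SHP099 libraries. The M-Shp2-/- libraries were low in all 3 replicates and did not overlap the others, whereas the WT and SHP099 libraries overlapped. The mean in M-Shp2-/- was 42.5% of that in WT, a log2 fold change of -1.19 ± 0.10 (SE, 3 against 3 libraries, limma adjusted p = 0.0168). Without WT replicate 1 or 2 the adjusted p was 0.105 or 0.125, and without M-Shp2-/- replicate 1 or 2 it was 0.196 or 0.151, while the log2 fold change ranged from -1.24 to -1.15 over the libraries left out. In SHP099 against WT the log2 fold change was -0.05 (95% interval -0.26 to 0.15, adjusted p = 0.729), and M-Shp2-/- against SHP099 gave -1.13 ± 0.08 (adjusted p = 0.0109). The last value missed 0.05 without M-Shp2-/- replicate 1 (0.115) or 2 (0.0641) and without SHP099 replicate 1 (0.0534), 2 (0.0942) or 3 (0.0996). The log2 fold change in these fits ran from -1.17 to -1.11. In M-Shp2-/- against WT *Ptpn11* also missed 0.05 without the library of each group with the most fibroblast RNA (0.157) and with a replicate block (0.157). The replicate block gave 0.146 against SHP099. The log2 fold change was -1.19 in these fits against WT and -1.13 with the block against SHP099. Residuals of replicates of the same number correlated at only -0.431 to 0.492, and replicates were not treated as paired. RNA levels report on the deletion but not on the activity of the phosphatase, so that the action of SHP099 could not be checked in this way.

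Single libraries stood apart within their groups. WT replicate 3 was the highest of its group for 8 of the 10 genes, against 20% of all genes tested, and SHP099 replicate 3 was the highest of its group for 8 of 10, against 19.6%. WT replicate 2 was the lowest of its group for 8 of the 10 genes, against 17.1% of all genes, and SHP099 replicate 1 for 7, against 20%. M-Shp2-/- replicate 3 was the highest of its group for 5 of the genes, against 31.4%, and the lowest for the other 5, against 55.7%. Median-of-ratios size factors on the log2 scale were -0.043, -0.019 and -0.268 in WT, 0.145, 0.074 and -0.014 in M-Shp2-/- and 0.109, 0.056 and -0.041 in SHP099, so that WT replicate 3 was also the library farthest from the rest on this scale. M-Shp2-/- replicate 3 was the only library whose log2 values correlated less with its own group (mean r 0.961) than with the other groups (0.973). Between replicates of M-Shp2-/- the chi-square of recovered reads per degree of freedom was 24 for replicates 1 and 2, and 214.4 and 273.6 for the pairs with replicate 3, beside 102.8 to 177.9 in WT and 31.4 to 54.9 in SHP099. The cause was not tested.

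Marker genes of the cells were read beside these libraries. The summed level of 8 macrophage markers, of which 8 passed the filter, was 10420, 13420 and 11190 FPKM in WT, 7595, 7468 and 8412 FPKM in M-Shp2-/- and 11780, 13010 and 13740 FPKM in SHP099. The most abundant of them was *Lyz2*, with a mean of 7886 FPKM, and the sum mostly follows this gene. *Lyz2* is also the gene that drives the Cre recombinase of the M-Shp2-/- mice. The part of the Cre in the level of *Lyz2*, and so in the sum of that group, was not tested. The markers did not move together. In M-Shp2-/- the means were 58.6% of WT for *Lyz2* and 43.3% for *Mertk*, with every library of both below WT. They were 47.8% for *Fcgr1*, 64.7% for *Cd14*, 91.6% for *Adgre1*, 92.7% for *Itgam*, 111% for *Cd68* and 142% for *Csf1r*. In SHP099 they were 58.5% for *Fcgr1*, 74.1% for *Cd14*, 76.2% for *Adgre1*, 80.4% for *Mertk* and 90.8% for *Cd68*. The remaining markers there had 106% for *Itgam*, 118% for *Lyz2* and 253% for *Csf1r*. Every SHP099 library lay below WT for *Cd68* and above it for *Csf1r*. The summed level of 6 fibroblast and mesothelial markers, of which 4 passed the filter, was 56.5, 272 and 36.2 FPKM in WT, 122.5, 45.9 and 548 FPKM in M-Shp2-/- and 334, 126.5 and 95.0 FPKM in SHP099, with *Col1a1* the most abundant (mean 75.2 FPKM). M-Shp2-/- replicate 3 was the highest in this sum. Results without the library of each group with the highest of these sums, which leaves 2 against 2 libraries, are given below as values without the fibroblast-rich libraries. In bulk RNA fewer cells of a type and less RNA per cell cannot be told apart.

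The marker lists of other cells had low sums in most cases. The sum of 4 dendritic cell markers, of which 1 (*Ccr7*, mean 2.70 FPKM) passed the filter, was 6.11, 3.92 and 3.75 FPKM in WT, 7.33, 5.07 and 3.43 FPKM in M-Shp2-/- and 1.498, 1.03 and 1.35 FPKM in SHP099. The sum of 4 mast cell markers, of which 1 passed (*Kit*, mean 1.35 FPKM), was 5.20, 2.44 and 3.49 FPKM in WT, 2.07, 3.15 and 0.954 FPKM in M-Shp2-/- and 0.401, 0.355 and 0.463 FPKM in SHP099. The SHP099 libraries were thus below every WT library in both of these sums, and the part of this in the changes under SHP099 was not tested. The markers did not all follow the sums. *Ccr7* and *Flt3* lay below WT in every SHP099 library, whereas *Zbtb46* and *Xcr1* overlapped between SHP099 and WT. Among the mast cell markers *Mcpt4* overlapped, and the others lay below WT. For 6 neutrophil markers, of which 2 passed (*Csf3r* the most abundant, mean 66.4 FPKM, with *Ly6g* and *Cxcr2* close to 0), the sums were 114, 157 and 150.5 FPKM in WT, 89.3, 92.4 and 168 FPKM in M-Shp2-/- and 104, 107.5 and 144 FPKM in SHP099. For 5 T cell markers, of which 1 passed (*Lck*), they were 2.01, 3.26 and 6.89 FPKM in WT, 2.01, 1.67 and 4.40 FPKM in M-Shp2-/- and 7.12, 5.38 and 5.10 FPKM in SHP099.

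In WT macrophages after IMQ, the order of the mean levels from the highest was *Nfkbia*, *Nfkb1*, *Nfkb2*, *Nfkbiz*, *Nfkbib*, *Bcl3*, *Rela*, *Relb*, *Nfkbie* and *Rel*. Neighbours in this order whose libraries did not overlap were *Nfkbia* and *Nfkb1*, *Nfkbib* and *Bcl3*, and *Nfkbie* and *Rel*, and the libraries of the other neighbours overlapped. Overlap does not show equal levels, since *Nfkb2* was below *Nfkb1* within each WT library. In M-Shp2-/- the order ran *Nfkbia*, *Nfkb1*, *Nfkb2*, *Nfkbiz*, *Nfkbib*, *Rela*, *Relb*, *Nfkbie*, *Bcl3* and *Rel*. There the libraries of *Nfkb2*, *Nfkbiz* and *Nfkbib* overlapped as neighbours, as did those of *Rela*, *Relb*, *Nfkbie* and *Bcl3*. In SHP099 the order ran *Nfkbia*, *Nfkb1*, *Nfkbiz*, *Nfkb2*, *Nfkbib*, *Rela*, *Relb*, *Nfkbie*, *Bcl3* and *Rel*, and only *Nfkb1* with *Nfkbiz* and *Nfkb2* with *Nfkbib* overlapped as neighbours. *Bcl3* thus stood above *Rela*, *Relb* and *Nfkbie* in mean level in WT and below all 3 in both other groups.

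Among all 54059 genes of the table ranked by mean FPKM, *Nfkbia* ranked 204 in WT, 257 in M-Shp2-/- and 197 in SHP099. *Nfkb2* ranked 420, 557 and 661 in the same groups, and *Bcl3* 1325, 1789 and 2558. *Rel*, the lowest of the 10 in each group, ranked 4287, 5304 and 5061.

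**Figure D1:**
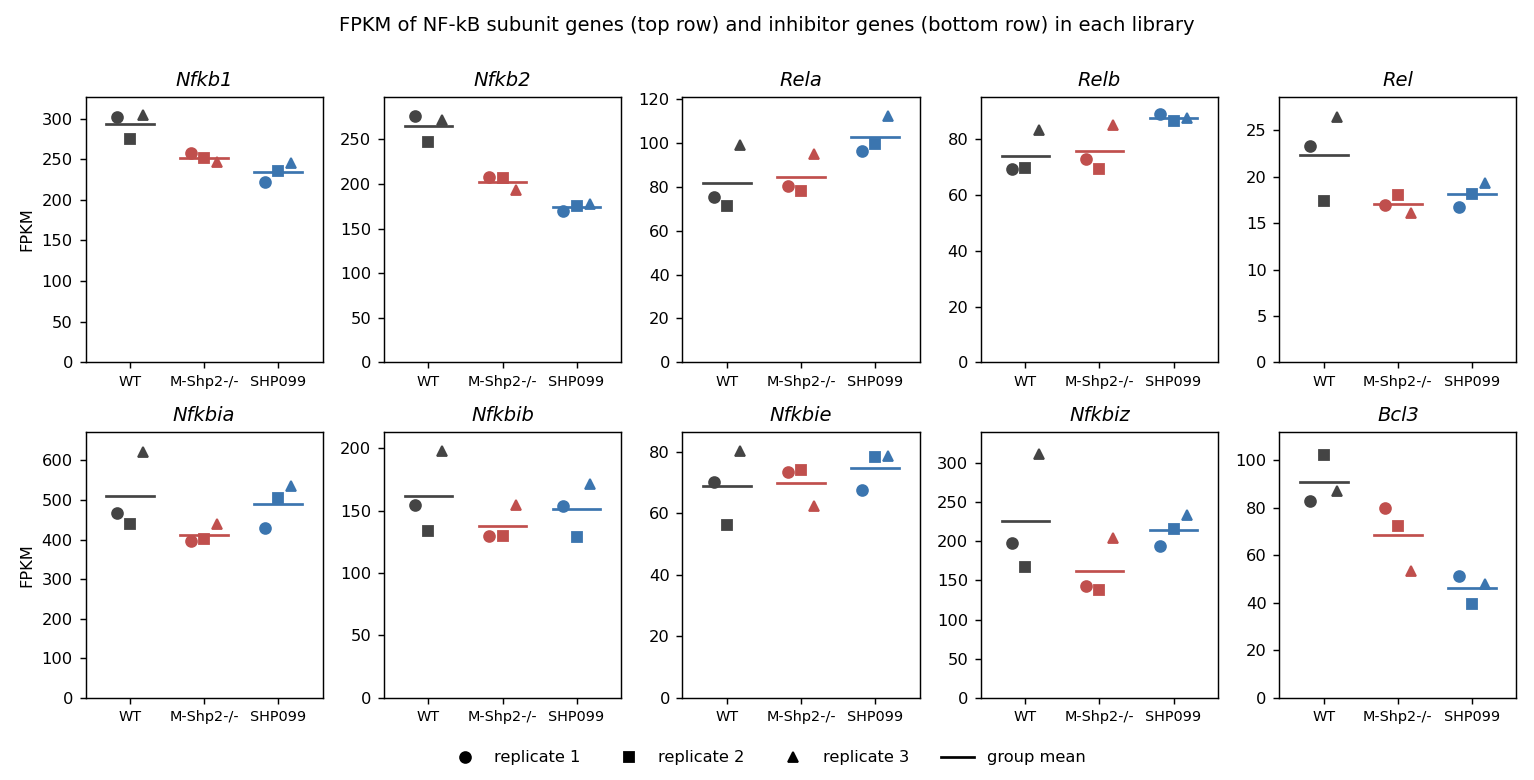
FPKM (y axis, from 0) of the subunit genes (top) and inhibitor genes (bottom) in the 9 libraries, with a symbol for each replicate and a bar at the group mean, for WT, M-Shp2-/- and SHP099 macrophages after IMQ. *Nfkb2* lay at 247 to 276 FPKM in WT, 193 to 207 FPKM in M-Shp2-/- and 169.9 to 178 FPKM in SHP099, and *Bcl3* at 82.8 to 102 FPKM, 53.3 to 79.7 FPKM and 39.5 to 51.1 FPKM.

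The 300 bases around the start of a gene (250 before and 50 after) were read for the 7 of the 10 genes found in a table of mouse RefSeq promoters (GRCm38.p6), in 9 stretches, 3 of them of *Nfkb2*; *Nfkb1*, *Relb* and *Nfkbiz* were not in that table. Shown are the stretches of *Nfkb2* and *Bcl3*, the genes that fell under SHP099, beside *Rela* and *Nfkbia*, which did not pass the test. Capitals mark matches to GGGNNNNNCC on either strand, and each stretch is printed 5′ to 3′ on the strand of its gene. The stretches are chr19:46304487-46304786 (plus strand) and chr19:46305445-46305744 (plus strand) for a pair of *Nfkb2* starts, chr7:19822706-19823005 (minus strand) for *Bcl3*, chr19:5637291-5637590 (plus strand) for *Rela* and chr12:55492598-55492897 (minus strand) for *Nfkbia*.
Nfkb2, upstream start: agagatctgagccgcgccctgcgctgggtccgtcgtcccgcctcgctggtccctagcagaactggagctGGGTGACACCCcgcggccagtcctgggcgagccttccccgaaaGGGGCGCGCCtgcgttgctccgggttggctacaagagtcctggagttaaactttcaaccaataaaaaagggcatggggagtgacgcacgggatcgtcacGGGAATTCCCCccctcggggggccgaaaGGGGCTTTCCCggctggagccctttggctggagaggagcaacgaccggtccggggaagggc
Nfkb2, downstream start: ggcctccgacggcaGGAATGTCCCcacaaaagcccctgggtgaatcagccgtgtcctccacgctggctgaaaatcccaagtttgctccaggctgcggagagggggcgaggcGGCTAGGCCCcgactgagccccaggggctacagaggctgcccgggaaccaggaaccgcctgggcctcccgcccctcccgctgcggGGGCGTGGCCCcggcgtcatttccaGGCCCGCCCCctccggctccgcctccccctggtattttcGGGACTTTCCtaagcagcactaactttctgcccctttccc
Bcl3: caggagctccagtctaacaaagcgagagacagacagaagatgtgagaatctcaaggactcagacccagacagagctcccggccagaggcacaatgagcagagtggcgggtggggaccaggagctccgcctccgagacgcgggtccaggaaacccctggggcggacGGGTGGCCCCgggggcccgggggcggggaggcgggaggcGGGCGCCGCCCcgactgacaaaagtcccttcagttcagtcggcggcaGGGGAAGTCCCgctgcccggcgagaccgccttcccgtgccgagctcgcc
Rela: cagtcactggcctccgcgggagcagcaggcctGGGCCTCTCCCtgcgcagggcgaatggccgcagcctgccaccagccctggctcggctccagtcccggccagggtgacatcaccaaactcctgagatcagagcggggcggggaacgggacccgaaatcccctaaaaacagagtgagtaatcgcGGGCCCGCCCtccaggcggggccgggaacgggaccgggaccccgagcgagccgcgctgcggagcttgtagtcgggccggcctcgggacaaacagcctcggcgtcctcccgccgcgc
Nfkbia: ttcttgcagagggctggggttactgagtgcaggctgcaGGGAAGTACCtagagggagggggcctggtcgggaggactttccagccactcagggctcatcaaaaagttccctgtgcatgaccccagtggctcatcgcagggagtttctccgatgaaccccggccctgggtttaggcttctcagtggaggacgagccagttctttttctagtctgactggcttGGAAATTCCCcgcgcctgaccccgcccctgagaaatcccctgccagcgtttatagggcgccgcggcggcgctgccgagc

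The letters GGGNNNNNCC were found in 8 of the 9 stretches, from 6 of the 7 genes, and in 50.8% of 32851 mouse promoters of the same length. The narrower kappaB consensus, whose matches all lie within matches of the wider pattern, was found in 7 of the 9 stretches, from 5 genes (*Nfkb2*, *Rel*, *Nfkbia*, *Nfkbie* and *Bcl3*), and in 4.51% of all promoters (1480). In the upstream stretch of *Nfkb2* consensus matches ran from -39 to -29 and from -11 to -2 relative to the start, and in the downstream stretch from -236 to -227 and from 10 to 19. The remaining *Nfkb2* start lies close to the downstream one, and its stretch shares the last of these matches. The match of *Bcl3* ran from 2 to 11, that of *Nfkbia* from -29 to -20, that of *Nfkbie* from -106 to -97 and those of *Rel* from -92 to -82. The stretch of *Rela* held no consensus match and that of *Nfkbib* neither pattern. A match describes letters in a window and is not a measure of binding.

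**Figure D2:**
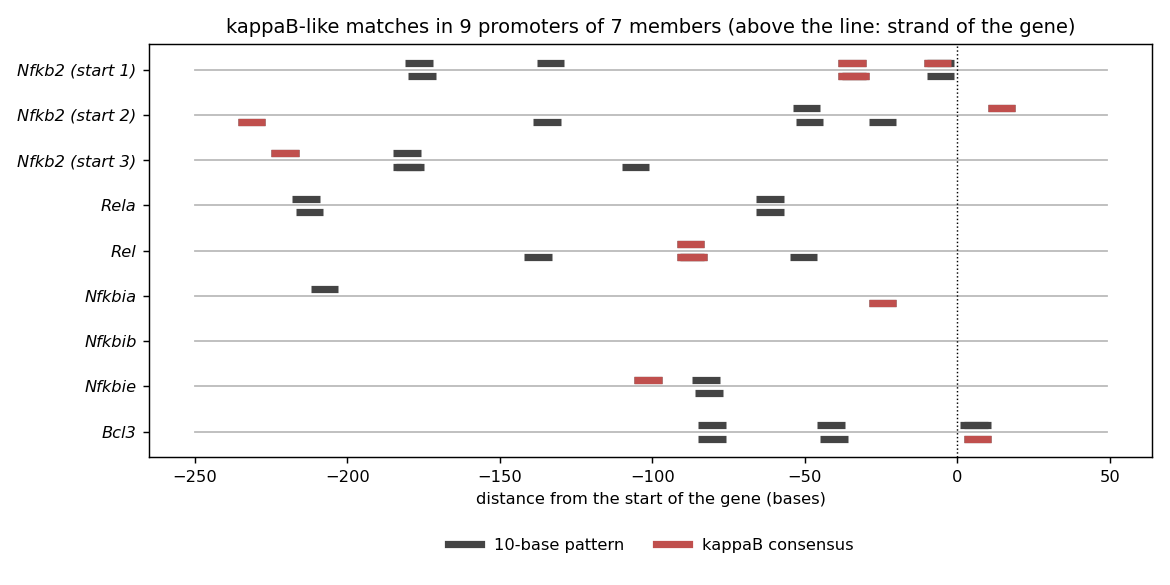
Positions of matches to GGGNNNNNCC and to the kappaB consensus along the 9 promoter stretches, in bases from the gene start (x axis), with a row for each stretch, marks above the line for the strand of the gene and below it for the other (starts 1 and 2 of *Nfkb2* are the upstream and downstream starts). Consensus matches appear in 7 of 9 rows, and the row of *Nfkbib* is empty.

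*Nfkb1* (ENSMUSG00000028163, chromosome 3, 135584655 to 135691547, GRCm38) encodes p105, which is processed to the DNA-binding subunit p50. Its level was 302, 275 and 304 FPKM in WT, 258, 251 and 247 FPKM in M-Shp2-/- and 222, 236 and 245 FPKM in SHP099. Each M-Shp2-/- and each SHP099 library lay below all WT libraries, and each M-Shp2-/- library lay above all SHP099 libraries. The means were 294 ± 16.3 FPKM in WT, 252 ± 5.65 FPKM in M-Shp2-/- and 234 ± 11.6 FPKM in SHP099 (SD, n = 3), and none of the differences passed the limma test. M-Shp2-/- against WT gave a log2 fold change of -0.22 (95% interval -0.42 to -0.02, limma adjusted p = 0.465) and SHP099 against WT gave -0.32 (-0.51 to -0.13, limma adjusted p = 0.0567). Under median-of-ratios scaling these were -0.40 and -0.47.

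*Nfkb2* (ENSMUSG00000025225, chromosome 19, 46304320 to 46312385) encodes p100, which both restrains NF-kB dimers and is processed to the subunit p52. It was measured at 276, 247 and 272 FPKM in WT, at 207, 206 and 193 FPKM in M-Shp2-/- and at 169.9, 175 and 178 FPKM in SHP099. No library of any group overlapped another group, with WT the highest and SHP099 the lowest. The level fell in SHP099 to 65.8% of the WT mean, with a log2 fold change of -0.60 ± 0.08 (SE; 95% interval -0.78 to -0.42, limma adjusted p = 0.0131, lower in 3 of 3 libraries). In M-Shp2-/- the mean was 76.3% of WT and the log2 fold change -0.39 (-0.59 to -0.18), which did not pass the test (unadjusted p = 0.00327, limma adjusted p = 0.388). Tested directly, M-Shp2-/- against SHP099 gave 0.21 (0.05 to 0.37, limma adjusted p = 0.332), so that the sizes of the 2 effects were not shown to differ. The SHP099 call rested on each SHP099 library, since the adjusted p was 0.0655, 0.0843 and 0.0533 without SHP099 replicates 1, 2 and 3, with log2 fold changes of -0.58, -0.60 and -0.61. It was also lost without the fibroblast-rich library of each group (0.104), where the log2 fold change was -0.63.

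The last exon of *Nfkb2* overlaps *Psd* on the opposite strand by 299 bases, 6.5% of the exon bases of *Nfkb2*, and a further 11.6% at its start overlap the noncoding gene AC114539.1, which is not in the table. The strand on which reads were counted is not given in the sources used here, so that reads of overlapping exons cannot be assigned. *Psd* was measured at 55.4, 52.3 and 39.1 FPKM in WT, 43.2, 45.2 and 33.9 FPKM in M-Shp2-/- and 29.4, 28.4 and 30.1 FPKM in SHP099. Its SHP099 libraries were below all WT libraries, with a log2 fold change of -0.71, and its part in the values of *Nfkb2* was not tested.

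*Rela* (ENSMUSG00000024927, chromosome 19, 5637483 to 5648130) encodes p65, the subunit with a transactivation domain that pairs with p50 in the canonical dimer. It was measured at 75.3, 71.4 and 98.8 FPKM in WT, at 80.2, 77.8 and 94.7 FPKM in M-Shp2-/- and at 96.0, 99.5 and 112 FPKM in SHP099. WT replicate 3 reached into the range of the SHP099 libraries, and M-Shp2-/- overlapped WT but lay below SHP099. SHP099 against WT gave a log2 fold change of 0.33 (95% interval 0.02 to 0.65, limma adjusted p = 0.171), which missed the threshold. Without WT replicate 3 the same comparison gave 0.48 with an adjusted p of 0.0272, and under median-of-ratios scaling it gave 0.18. M-Shp2-/- against WT gave 0.05 (-0.31 to 0.41, limma adjusted p = 0.872), a direction that turned to -0.13 under median-of-ratios scaling and to -0.12 without the fibroblast-rich libraries. The log2 fold change was 0.00 without WT replicate 1, 0.19 without WT replicate 3 and -0.04 without WT replicate 2 or M-Shp2-/- replicate 3.

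*Relb* (ENSMUSG00000002983, chromosome 7, 19606217 to 19629438), whose product pairs with p52 and p50, was measured at 69.5, 69.7 and 83.3 FPKM in WT, 73.1, 69.4 and 85.2 FPKM in M-Shp2-/- and 88.9, 86.5 and 87.6 FPKM in SHP099. The SHP099 libraries were tightly grouped above every WT and M-Shp2-/- library, while WT and M-Shp2-/- overlapped. The log2 fold change in SHP099 against WT was 0.24 (95% interval 0.03 to 0.46, limma adjusted p = 0.149), and it was 0.33 without WT replicate 3 (adjusted p = 0.0272) and 0.09 under median-of-ratios scaling. In M-Shp2-/- against WT it was 0.03 (-0.25 to 0.32, limma adjusted p = 0.898) and turned to -0.14 under median-of-ratios scaling and to -0.09 without the fibroblast-rich libraries. It was 0.12 without WT replicate 3, -0.01 without WT replicate 1 or 2 and -0.05 without M-Shp2-/- replicate 3.

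*Rel* (ENSMUSG00000020275, chromosome 11, 23736847 to 23770970) encodes c-Rel, a subunit of lymphoid and myeloid cells. Its level was 23.3, 17.3 and 26.5 FPKM in WT, 17.0, 18.1 and 16.1 FPKM in M-Shp2-/- and 16.8, 18.1 and 19.4 FPKM in SHP099. WT replicate 2 lay within the range of both other groups, and the remaining WT libraries lay above them. The mean was 76.2% of WT in M-Shp2-/- and 80.9% in SHP099, with log2 fold changes of -0.35 (95% interval -0.75 to 0.04, limma adjusted p = 0.478) and -0.27 (-0.64 to 0.10, limma adjusted p = 0.316). With a library left out these ran from -0.52 to -0.23 and from -0.44 to -0.15, the ends set by WT replicates 2 and 3, and under median-of-ratios scaling they were -0.53 and -0.42.

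*Nfkbia* (ENSMUSG00000021025, chromosome 12, 55489410 to 55492647) encodes IkBα, the inhibitor that is degraded and made anew in each round of signalling. It was measured at 466, 439 and 622 FPKM in WT, at 397, 400.5 and 439.9 FPKM in M-Shp2-/- and at 429, 504 and 535 FPKM in SHP099. WT replicate 3 was the highest of the 9 libraries, and M-Shp2-/- replicate 3 lay just above WT replicate 2, so that the groups overlapped. The log2 fold change was -0.29 in M-Shp2-/- (95% interval -0.64 to 0.06, limma adjusted p = 0.487) and -0.05 in SHP099 (-0.41 to 0.31, limma adjusted p = 0.877). The former was -0.13 without WT replicate 3, -0.43 without the fibroblast-rich libraries and -0.47 under median-of-ratios scaling. The latter direction depended on single libraries and was 0.11 without WT replicate 3 and 0.05 without SHP099 replicate 1.

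*Nfkbib* (ENSMUSG00000030595, chromosome 7, 28758251 to 28767512) encodes IkBβ and *Nfkbie* (ENSMUSG00000023947, chromosome 17, 45555703 to 45563169) encodes IkBε, further inhibitors that hold dimers in the cytoplasm. *Nfkbib* had means of 162 ± 32.7 FPKM in WT, 138 ± 14.3 FPKM in M-Shp2-/- and 152 ± 21.3 FPKM in SHP099 (SD, n = 3). *Nfkbie* had means of 68.8 ± 12.1, 69.9 ± 6.64 and 74.7 ± 6.15 FPKM in the same order. All 3 groups overlapped for both genes. For *Nfkbib* the log2 fold change was -0.22 (95% interval -0.60 to 0.17) in M-Shp2-/- and -0.09 (-0.47 to 0.30) in SHP099, and the latter was 0.07 without WT replicate 3 and 0.02 without SHP099 replicate 2. Without WT replicate 3 the former was -0.06, and without the fibroblast-rich libraries the values were -0.43 and -0.23. For *Nfkbie* it was 0.03 (-0.33 to 0.39) in M-Shp2-/- and 0.13 (-0.20 to 0.46) in SHP099, and both turned negative under median-of-ratios scaling (-0.14 and -0.02). Without WT replicate 2 the values of *Nfkbie* were -0.10 and -0.01, and in M-Shp2-/- against WT it had 0.00 and -0.01 without M-Shp2-/- replicates 1 and 2. The exons of *Nfkbib* overlap *Ccer2* (14.5% of its exon bases), which reached at most 0.238 FPKM in a library, and *Sirt2* (1.9%).

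*Nfkbiz* (ENSMUSG00000035356, chromosome 16, 55811375 to 55838899) encodes IkBζ, a nuclear protein of the family that is needed for the induction of a group of secondary response genes. Its level was 198, 167 and 312 FPKM in WT, 142, 138 and 204 FPKM in M-Shp2-/- and 194, 216 and 234 FPKM in SHP099. Replicate 3 was the highest of each group, and all groups overlapped. The mean in M-Shp2-/- was 71.7% of WT, with a wide spread and a log2 fold change of -0.45 (95% interval -1.07 to 0.17, limma adjusted p = 0.51). It was -0.19 without WT replicate 3, -0.63 without M-Shp2-/- replicate 3 and -0.82 without the fibroblast-rich libraries. In SHP099 the log2 fold change was -0.03 (-0.54 to 0.49, limma adjusted p = 0.956), and it was 0.23 without WT replicate 3 and 0.05 without SHP099 replicate 1.

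*Bcl3* (ENSMUSG00000053175, chromosome 7, 19808462 to 19822770) encodes a nuclear IkB protein that binds homodimers of p50 and p52 on DNA. It was measured at 82.8, 102 and 86.9 FPKM in WT, at 79.7, 72.3 and 53.3 FPKM in M-Shp2-/- and at 51.1, 39.5 and 48.1 FPKM in SHP099. The groups followed each other without overlap, WT the highest and SHP099 the lowest, with M-Shp2-/- replicate 3 close to the SHP099 libraries. *Bcl3* fell in SHP099 to 51.0% of the WT mean, with a log2 fold change of -0.96 ± 0.13 (SE; 95% interval -1.26 to -0.66, limma adjusted p = 0.0136, lower in 3 of 3 libraries). In M-Shp2-/- the mean was 75.5% of WT and the log2 fold change -0.41 (-0.82 to -0.01, unadjusted p = 0.0447, limma adjusted p = 0.467), which was -0.25 without M-Shp2-/- replicate 3, -0.16 without the fibroblast-rich libraries and -0.59 under median-of-ratios scaling. Tested directly, M-Shp2-/- against SHP099 gave 0.54 (0.14 to 0.95, limma adjusted p = 0.329). The SHP099 call was lost without SHP099 replicate 2 (log2 fold change -0.85, adjusted p = 0.0611) and without SHP099 replicate 3 (-0.99, adjusted p = 0.0546), with no filter on low FPKM (-0.96, adjusted p = 0.0664) and without the fibroblast-rich library of each group (-0.94, adjusted p = 0.0662). The exons of *Bcl3* overlap the antisense gene *Gm16175* (6.5% of its exon bases), which reached at most 0.545 FPKM in a library.

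*Relb* and *Bcl3* lie 179.0 kb apart on chromosome 7, the closest pair of the 10 genes. Their mean levels under SHP099 were 118% and 51.0% of WT.

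**Figure D3:**
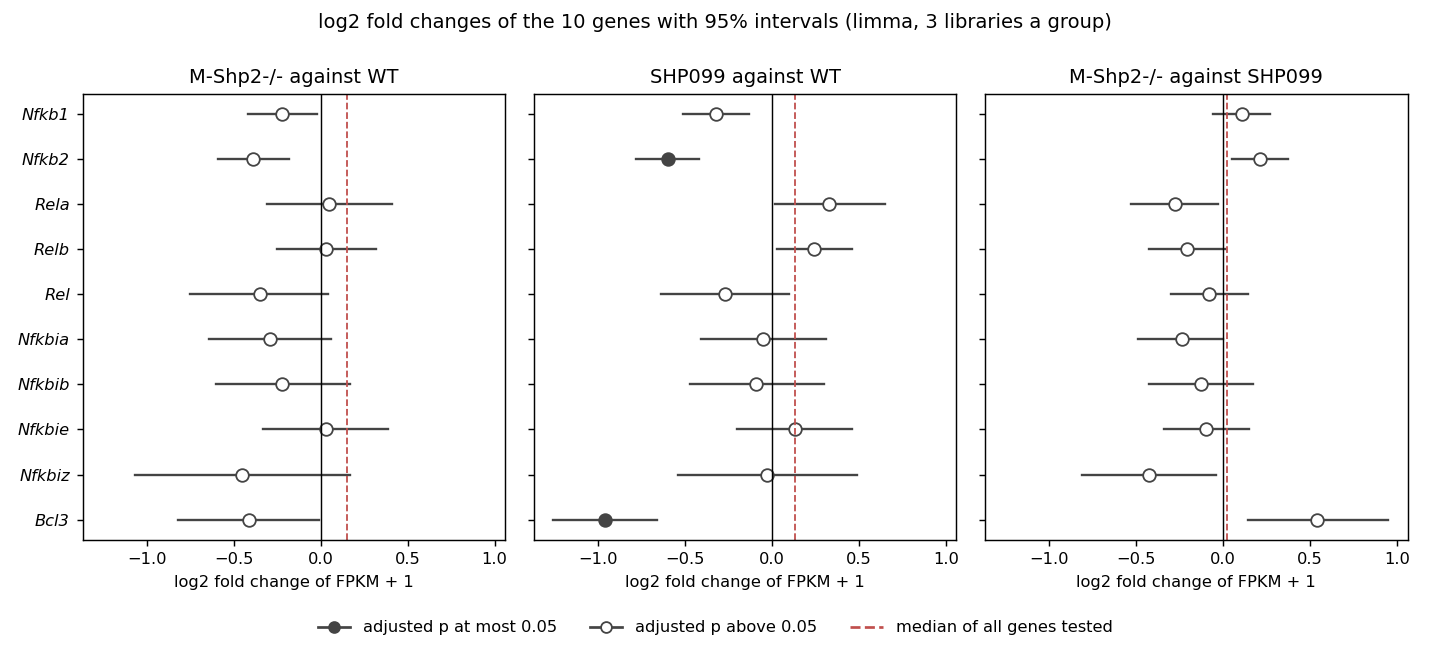
Log2 fold change (x axis) of each of the 10 genes with its 95% interval in the 3 comparisons, from limma on log2(FPKM + 1) in 3 against 3 libraries, with filled points where the adjusted p did not exceed 0.05 and a dashed line at the median of all genes tested. *Nfkb2* (-0.60) and *Bcl3* (-0.96) in SHP099 against WT are the filled points; the directions of *Rela*, *Relb* and *Nfkbie* in M-Shp2-/- against WT and of *Nfkbie* in SHP099 against WT flip under median-of-ratios scaling.

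M-Shp2-/- against WT compared macrophages of mice with and without the deletion of *Ptpn11*. There limma called 0 of the 10 genes at the thresholds of the study (1 of all genes, 0.00873%) and 0 where the adjusted p alone was used (10 of all genes, 0.0873%). At an unadjusted p of at most 0.05 there were 3 of the 10 and 1204 of all genes, and voom on the recovered reads called 0 of the 10 by either rule. With each library left out in turn, all-gene calls numbered 2, 1 and 5 without WT replicates 1, 2 and 3 and 1, 1 and 8 without M-Shp2-/- replicates 1, 2 and 3, and calls among the 10 stayed at 0. The M-Shp2-/- libraries were all lower than the WT libraries for 3 of the 10 genes (*Nfkb1*, *Nfkb2* and *Bcl3*), against 3.07% of all genes, and all higher for 0 of the 10, against 16% of all genes. The median log2 fold change was -0.25 for the 10 genes (range -0.45 to 0.05) and 0.15 for all genes tested.

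In SHP099 against WT, which asks what blocking the phosphatase does over a short time, limma called 0 of the 10 genes at the thresholds of the study (19 of all genes, 0.166%), with 5 of the 10 and 3061 of all genes at an unadjusted p of at most 0.05, and voom also called 0 at these thresholds. By the adjusted p alone, limma called 2 of the 10 (797 of all genes, 6.96%), both of them lower (276 of all genes, 2.41%), with 521 of all genes higher, and voom called the same 2, *Nfkb2* (0.0155) and *Bcl3* (0.0156), with 776 of all genes (6.84%). Under median-of-ratios scaling 339 of all genes were lower and 172 higher, and the same 2 of the 10, *Nfkb2* and *Bcl3*, were called. The study also reported *Nfkb2* and *Bcl3* as lower with SHP099 by quantitative PCR in peritoneal macrophages given IMQ. Without WT replicate 3 there were 4 of the 10 (*Nfkb2*, *Rela*, *Relb* and *Bcl3*) and 1273 of all genes (11.1%), and the median of the 10 genes moved from -0.07 to 0.09. Calls among the 10 numbered 1 without SHP099 replicate 1 and 0 without SHP099 replicate 2 or 3, with 90, 47 and 116 of all genes. Calls of all genes numbered 284 without WT replicate 1 and 399 without WT replicate 2, each time with 2 of the 10. All SHP099 libraries were lower than the WT libraries for 3 of the 10 genes (*Nfkb1*, *Nfkb2* and *Bcl3*; 6.77% of all genes) and higher for 1 (*Relb*; 27.9%).

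The comparisons with WT share the WT libraries and are not independent, and their values are given side by side only. Median-of-ratios scaling moved the median log2 fold change of all genes from 0.15 to -0.01 in M-Shp2-/- against WT and from 0.13 to -0.01 in SHP099 against WT. Relative to the median of all genes, the log2 fold change of *Nfkb1* was -0.37 in M-Shp2-/- and -0.45 in SHP099, that of *Nfkb2* -0.53 and -0.73, and that of *Bcl3* -0.56 and -1.09. On this scale all 10 genes lay below the median of all genes in M-Shp2-/- against WT, with *Rela* at -0.10, *Relb* at -0.11 and *Nfkbie* at -0.11. In SHP099 against WT 7 of the 10 lay below it, with *Rela* at 0.21 and *Relb* at 0.12 among those above. After scaling, the M-Shp2-/- libraries were all lower than WT for 5 of the 10 genes (*Nfkb1*, *Nfkb2*, *Rel*, *Nfkbia* and *Bcl3*; 9.14% of all genes) and all higher for 0 (6.22%). The SHP099 libraries were then all lower for 3 (*Nfkb1*, *Nfkb2* and *Bcl3*; 14.6%) and all higher for 0 (13.9%), so that *Relb* no longer stood above WT.

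M-Shp2-/- against SHP099 asks whether deletion and inhibition left different levels. Limma called 0 of the 10 genes at the thresholds of the study (0 of all genes, 0%) and 0 where the adjusted p alone was used (8 of all genes, 0.0699%), with 4 of the 10 and 1437 of all genes at an unadjusted p of at most 0.05, and voom called 0 of the 10 by either rule. The M-Shp2-/- libraries were all lower than the SHP099 libraries for *Rela* and *Relb* (2 of 10, against 9.76% of all genes) and all higher for *Nfkb1*, *Nfkb2* and *Bcl3* (3 of 10, against 7.9%). After scaling between libraries the former count was 0 (10.2%) and the latter 2, *Nfkb2* and *Bcl3* (8.78%). Without M-Shp2-/- replicate 3, the library with the highest fibroblast marker sum, limma called 5 of the 10 genes and 2277 of all genes (19.9%). These were *Nfkb2* (log2 fold change 0.25, adjusted p = 0.0291), *Rela* (-0.37, 0.0268), *Relb* (-0.30, 0.0194), *Nfkbiz* (-0.61, 0.00809) and *Bcl3* (0.71, 0.0116). Calls of all genes numbered 0 and 2 without M-Shp2-/- replicates 1 and 2 and 0 without any SHP099 replicate, each time with 0 of the 10. With all libraries *Nfkbiz* had a log2 fold change of -0.43 (95% interval -0.81 to -0.04, limma adjusted p = 0.373), and -0.68 without the fibroblast-rich libraries.

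Ratios between the genes within a library do not move with scaling between libraries, and pairs were picked after their values were seen, as descriptions with no test. The counts below hold only for the pairs picked, and the share over all pairs was not counted. Of 8 such ratios, 5 were lower in every M-Shp2-/- library than in every WT library and 3 overlapped (*Nfkb1* to *Rela*, *Bcl3* to *Nfkb1* and *Bcl3* to *Relb*), and 8 were lower in every SHP099 library. The ratio of *Nfkb2* to *Nfkb1*, in FPKM, was 0.913, 0.898 and 0.893 in WT, 0.803, 0.822 and 0.780 in M-Shp2-/- and 0.765, 0.742 and 0.725 in SHP099. The groups did not overlap, and WT replicate 3, the highest WT library in level for 8 of the genes, lay near the other WT libraries in this ratio. The ratio of *Nfkbia* to *Rela*, an inhibitor to the subunit it binds, was 6.19, 6.15 and 6.30 in WT, 4.94, 5.15 and 4.65 in M-Shp2-/- and 4.47, 5.07 and 4.77 in SHP099. It was lower in each M-Shp2-/- and SHP099 library than in every WT library, although *Nfkbia* and *Rela* each overlapped between WT and the other groups. The ratio of *Nfkbib* to *Rela* had means of 1.98, 1.64 and 1.48 in WT, M-Shp2-/- and SHP099, with no overlap between groups. That of *Nfkb2* to *Relb*, whose products p52 and RelB form the dimer of the alternative pathway, had means of 3.59 ± 0.354, 2.69 ± 0.378 and 1.99 ± 0.0667 (SD, n = 3), again with no overlap.

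The summed FPKM of the 5 subunits was 745, 680 and 785 in WT, 636, 623 and 635 in M-Shp2-/- and 594, 615 and 642 in SHP099. Both groups lay below WT in every library and overlapped each other. *Nfkb2* held 36.0% of this sum in WT, 32.0% in M-Shp2-/- and 28.3% in SHP099, *Rela* 11.1%, 13.3% and 16.6%, and *Relb* 10.1%, 12.0% and 14.2%. The share of *Nfkb1* was 39.9% in WT, 39.9% in M-Shp2-/- and 38.0% in SHP099. The summed FPKM of the 5 inhibitor proteins had means of 1060 in WT, 850 in M-Shp2-/- and 977 in SHP099, and all groups overlapped. *Nfkbia* held 48.3%, 48.5% and 50.1% of it and *Bcl3* 8.87%, 8.13% and 4.77%. The ratio of the inhibitor sum to the subunit sum had means of 1.43, 1.35 and 1.58, and the M-Shp2-/- libraries lay below all SHP099 libraries while WT overlapped both.

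**Figure D4:**
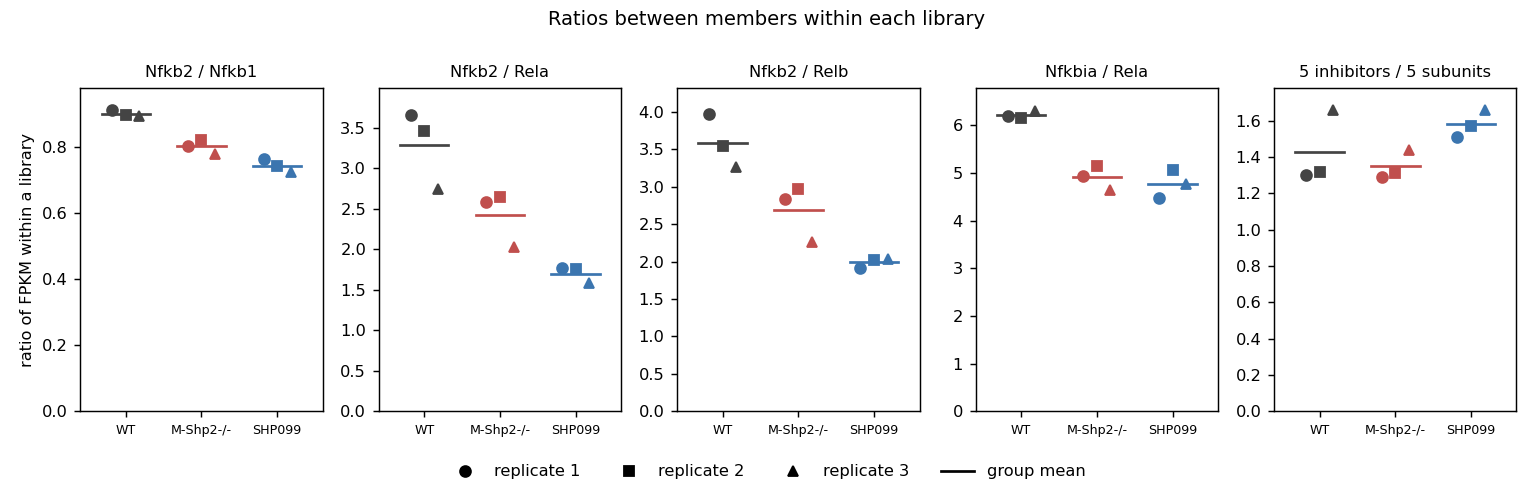
Ratios of FPKM between pairs of the 10 genes within each library (a symbol for each replicate, with a bar at the group mean), and of the summed inhibitor to the summed subunit genes, in WT, M-Shp2-/- and SHP099. The ratio of *Nfkb2* to *Nfkb1* was at least 0.893 in WT and at most 0.765 in SHP099, and that of *Nfkbia* to *Rela* at least 6.15 in WT and at most 5.15 in M-Shp2-/-. The pairs were picked after their values were seen.

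Genes up the pathway were counted in lists. Of 13 genes of TLR7 and its adaptors, limma called 0 in M-Shp2-/- against WT (0 at an unadjusted p of at most 0.05; median log2 fold change -0.09) and 1 in SHP099 against WT (2 at an unadjusted p of at most 0.05; median 0.03), *Tlr7* itself, the receptor of IMQ. A single call of 13 is near the share of all genes called in SHP099 against WT (6.96%). *Tlr7* was measured at 89.6, 87.0 and 103 FPKM in WT, 73.8, 88.5 and 72.0 FPKM in M-Shp2-/- and 49.6, 48.7 and 67.8 FPKM in SHP099. The SHP099 libraries lay below all others, and the level fell with a log2 fold change of -0.75 ± 0.14 (SE, limma adjusted p = 0.0314). The adjusted p was 0.071 and 0.0546 without WT replicates 1 and 2 and 0.121 and 0.142 without SHP099 replicates 1 and 2, 0.0541 under median-of-ratios scaling (log2 fold change -0.90), 0.111 with no filter (-0.75) and 0.172 without the fibroblast-rich library of each group (-0.73), so that the fold was about as large or larger where these calls were lost, and with a library left out it ran from -0.90 to -0.67. Without WT replicate 3 the list held 2 calls for lower levels. M-Shp2-/- against SHP099 gave 0.50 for *Tlr7* (95% interval 0.14 to 0.86, limma adjusted p = 0.324).

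Of 12 genes of the IKK and NIK kinases and of IkB turnover, limma called 0 in M-Shp2-/- against WT (1 at an unadjusted p of at most 0.05; median log2 fold change 0.08) and 1 in SHP099 against WT (8 at an unadjusted p of at most 0.05, where all genes had 3061 of 11450; median 0.06). This single call of 12 is also near the share of all genes called in SHP099 against WT (6.96%). The SHP099 libraries were all lower than WT for 3 of the 12 (6.77% of all genes) and all higher for 5 (27.9%). The gene was *Cul1*, of the ubiquitin ligase that marks IkB for degradation, at 82.3, 87.2 and 77.7 FPKM in WT, 85.9, 85.7 and 108 FPKM in M-Shp2-/- and 102, 105 and 107 FPKM in SHP099. The SHP099 libraries lay above all WT libraries, and the level rose by 0.34 ± 0.08 on the log2 scale (SE, limma adjusted p = 0.0435), a call that was lost without WT replicate 1 (0.0919) or 2 (0.0688), without SHP099 replicate 1 (0.157), 2 (0.182) or 3 (0.12), under median-of-ratios scaling (0.263), with no filter (0.0758), with all 9 libraries in one fit (0.0778) and without the fibroblast-rich libraries (0.237). The log2 fold change was 0.19 under the scaling, 0.34 with no filter and in the fit of 9 libraries, 0.40 without the fibroblast-rich libraries and 0.30 to 0.38 with a library left out. A replicate block also lost the call (limma adjusted p = 0.0736), with a log2 fold change of 0.34. M-Shp2-/- against SHP099 gave -0.17 for *Cul1* (limma adjusted p = 0.533). Without WT replicate 3 the list held 2 calls for lower levels. *Ikbkg*, the regulatory subunit of the IKK complex, had log2 fold changes of 0.54 in M-Shp2-/- (limma adjusted p = 0.462) and 0.57 in SHP099 (limma adjusted p = 0.105). *Map3k8*, a kinase held by p105, had -0.37 in SHP099 (limma adjusted p = 0.0994).

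Of 10 further inhibitors and nuclear partners of NF-kB, limma called 0 in each comparison with WT, with 1 at an unadjusted p of at most 0.05 in each, and medians of 0.04 in M-Shp2-/- and -0.02 in SHP099. *Tnip1*, which dampens signalling together with A20, had log2 fold changes of -0.38 (limma adjusted p = 0.454) and -0.36 (limma adjusted p = 0.0731). *Tnfaip3*, the gene of A20, had -0.60 (limma adjusted p = 0.49) and -0.26 (limma adjusted p = 0.551). Voom also called 0 of the adaptors and of the kinases in M-Shp2-/- against WT and 0 of the further inhibitors in each comparison with WT.

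**Figure D5:**
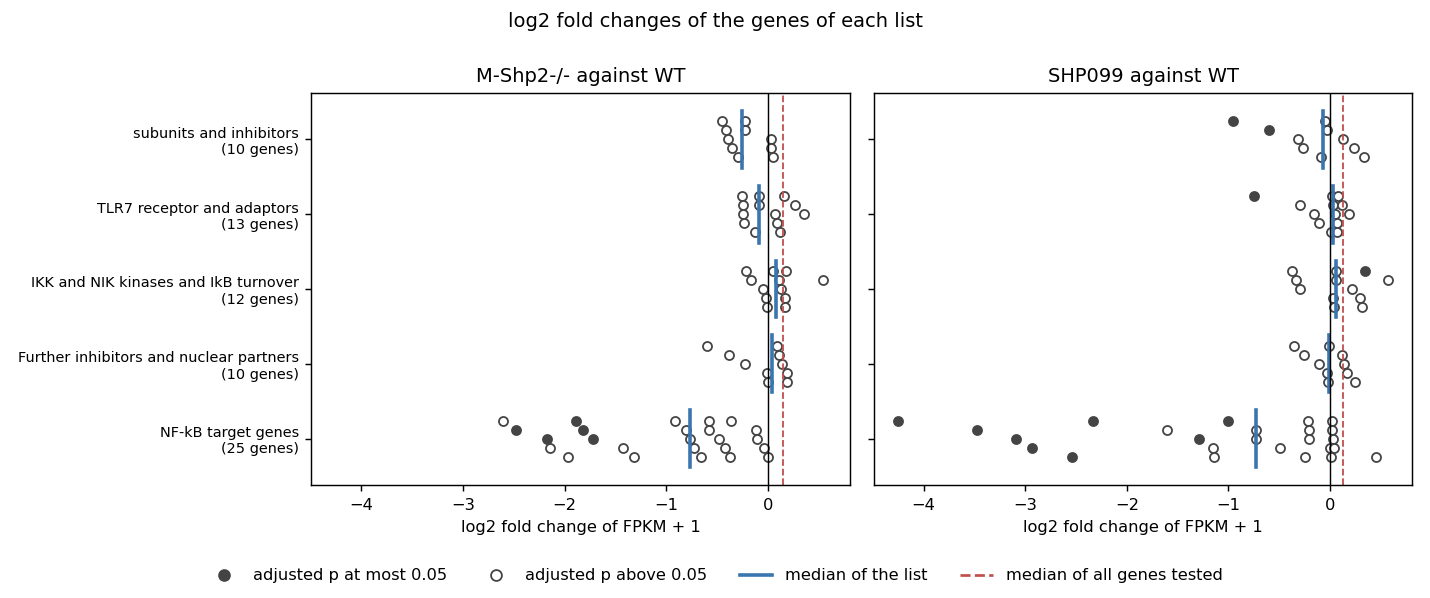
Log2 fold change (x axis) of each gene (points, filled for an adjusted p of at most 0.05) and the median (bar) in the 10 NF-kB genes and the lists of pathway genes, with a dashed line at the median of all 11450 genes tested, for M-Shp2-/- and SHP099 against WT. The medians of the target genes (-0.76 and -0.73) lay lowest, with -0.25 and -0.07 in the 10 NF-kB genes and 0.15 and 0.13 in all genes. The lists were chosen with earlier results of these data known.

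Of 25 known target genes of NF-kB, 5 fell in M-Shp2-/- against WT and 8 in SHP099 against WT, with 0 that rose in either by limma or voom, and their median log2 fold changes were -0.76 and -0.73. Of all genes 0.0873% and 6.96% were called in these comparisons, in either direction. The list was chosen with earlier results of these data known. The study had itself reported the 5 genes called in M-Shp2-/- as lower there by quantitative PCR. The counts therefore describe the list and are not a test against all genes. *Il1b* was measured at 4291, 4108 and 3143 FPKM in WT, 763, 705.5 and 594.5 FPKM in M-Shp2-/- and 192, 99.96 and 409 FPKM in SHP099, with no overlap between groups. Its log2 fold changes of -2.48 (limma adjusted p = 0.00781) and -4.25 (limma adjusted p = 0.00846) stood beside -0.39 and -0.60 for *Nfkb2* in the same comparisons. The genes that fell in M-Shp2-/- were *Il1b*, *Il1a* (-1.82), *Il6* (-2.17), *Csf2* (-1.89) and *Ptgs2* (-1.72), with limma adjusted p from 0.00117 to 0.0442. In SHP099 these had -4.25, -3.09, -2.93, -2.54 and -2.33, and *Il12b* (-3.48), *Cd40* (-1.29) and *Lcn2* (-1.0) also fell, with limma adjusted p from 0.00846 to 0.0442.

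Among the targets, the calls in M-Shp2-/- numbered 1, 1 and 3 without WT replicates 1, 2 and 3 and 1, 1 and 3 without M-Shp2-/- replicates 1, 2 and 3. Of these, *Il6* was kept in each case (adjusted p 0.00871 to 0.0295), *Csf2* and *Ptgs2* were lost in each (highest adjusted p 0.258 and 0.272), and *Il1a* and *Il1b* were lost without replicate 1 or 2 of either group (highest 0.104 and 0.0952). Where lost, the log2 fold change ran from -2.04 to -1.76 for *Csf2* and from -1.83 to -1.57 for *Ptgs2*. It ran from -1.84 to -1.72 for *Il1a* and from -2.56 to -2.39 for *Il1b*. The calls in SHP099 numbered 4 without WT replicate 1 and 3 without SHP099 replicate 1 or 2, and without WT replicate 3 there was 1 call for a higher level. *Il1a* and *Il1b* were kept in each case (adjusted p at most 0.0478 and 0.0339). *Il6* was lost without SHP099 replicate 1 (0.0541) and *Ptgs2* without SHP099 replicate 1 (0.0577) or 2 (0.059). *Csf2* was lost without WT replicate 1 (0.0576) or SHP099 replicate 2 (0.059) or 3 (0.0723), and *Il12b* without WT replicate 1 (0.0653) or any SHP099 replicate (0.112, 0.133 and 0.0706). *Lcn2* was lost without any WT replicate (0.0809, 0.0935 and 0.0603) and without SHP099 replicate 1 (0.13) or 2 (0.179). *Cd40* was lost without WT replicate 1 (0.074) or 3 (0.0535) and without any SHP099 replicate (0.126, 0.156 and 0.0658). Where these calls were lost in SHP099, the log2 fold change was -2.82 for *Il6*, -2.22 and -2.08 for *Ptgs2* and -2.54 to -2.13 for *Csf2*. It ran from -3.87 to -2.90 for *Il12b*, from -1.09 to -0.80 for *Lcn2* and from -1.47 to -1.07 for *Cd40*.

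The target calls also depended on the fit and the filter. With a replicate block, which the pairing check above did not call for, *Il1a* (0.111), *Csf2* (0.214) and *Ptgs2* (0.214) were lost in M-Shp2-/- against WT. With all 9 libraries in one fit the limma calls in M-Shp2-/- numbered 0, with adjusted p of 0.082 for *Il6*, 0.099 for *Ptgs2*, 0.102 for *Il1b*, 0.138 for *Csf2* and 0.143 for *Il1a*, and those in SHP099 numbered 6, without *Lcn2* (0.0715) and *Cd40* (0.065). With no filter on low FPKM there were 2 in M-Shp2-/-, without *Il1b* (0.0697), *Csf2* (0.168) and *Ptgs2* (0.16), and 0 in SHP099, where the adjusted p ran from 0.0633 for *Il1b* to 0.159 for *Lcn2*. Median-of-ratios scaling lost *Ptgs2* in M-Shp2-/- (0.0786) and *Lcn2* in SHP099 (0.0545). Without the fibroblast-rich library of each group 1 call was left in M-Shp2-/- and 3 in SHP099. The log2 fold changes of the lost calls were then -1.69 for *Il1a*, -2.32 for *Il1b*, -1.91 for *Csf2* and -1.78 for *Ptgs2* in M-Shp2-/-, and -4.17 for *Il1b*, -2.82 for *Il6*, -2.33 for *Ptgs2*, -1.43 for *Cd40* and -0.69 for *Lcn2* in SHP099, so that only that of *Lcn2* was much smaller. The fit of 9 libraries, the filter and the replicate block left the fold changes as they were, and under the scaling those of *Ptgs2* in M-Shp2-/- and *Lcn2* in SHP099 were -1.90 and -1.15. *Csf2* in M-Shp2-/- was also lost by voom (-2.26, adjusted p = 0.0953) and with a pseudocount of 0.1 (-2.23, 0.0501) or 5 (-1.17, 0.053). In SHP099 the call of *Csf2* was kept, but its log2 fold change of -2.54 depended on these choices. It was -3.61 by voom, -3.47 with a pseudocount of 0.1 and -1.40 with 5. The fewest recovered reads of *Csf2* in an SHP099 library were 7.

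M-Shp2-/- against SHP099 gave 0 calls by limma, and 0 by voom, in each of these lists, with 1, 2, 0 and 5 genes at an unadjusted p of at most 0.05 for the adaptors, the kinases, the further inhibitors and the targets (1437 of all 11450 genes). The medians were 0.02, -0.05, -0.03 and -0.12. Without M-Shp2-/- replicate 3 the lists held 1 call for a lower and 2 for a higher level, 2 and 2, 1 and 0, and 9 and 3, in the same order, where 903 of all genes were lower and 1374 higher (19.9% together).

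For *Nfkb2* and *Bcl3*, the genes with the most similar course over the 9 libraries were found by the root-mean-square difference of log2(FPKM + 1) after centring each gene. The nearest to *Nfkb2* were *Stxbp3* (0.07), *Prkcd* (0.073) and *Zc3h12a* (0.079). *Zc3h12a* was measured at 223, 215 and 243 FPKM in WT, 190.0, 182 and 156 FPKM in M-Shp2-/- and 145, 141 and 169 FPKM in SHP099. Its groups overlapped only between M-Shp2-/- and SHP099, where *Nfkb2* did not. Of the other 9 NF-kB genes *Nfkb1* was the nearest to *Nfkb2*, at rank 20 of all genes tested (0.117), followed by *Rel* at rank 149 (0.184). The nearest to *Bcl3* were *Notch1* (0.12), *Bhlhe40* (0.126) and *Gm9844* (0.142). *Bhlhe40* was measured at 177, 191 and 180.0 FPKM in WT, 143, 159 and 94.1 FPKM in M-Shp2-/- and 89.0, 68.9 and 89.6 FPKM in SHP099. As for *Bcl3*, the groups did not overlap and M-Shp2-/- replicate 3 lay near the SHP099 libraries. *Nfkb2* stood at rank 109 from *Bcl3* (0.249).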

How the data were processed

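Values were the FPKM that the authors deposited, a column for each of 9 libraries. By the submitters' processing notes, bases were called with CASAVA 1.8, reads aligned with HISAT2 2.0.4 and counted with HTSeq 0.9.1. The FPKM tool, genome build, annotation and strand of counting are not given in the sources used here. A second table of gene spans was not used. Symbols and positions came from GENCODE M21. Genes with a mean of at least 1 FPKM were fitted as log2(FPKM + 1) with limma 3.58.1 (lmFit, eBayes with trend; R 4.3.3; tables with Python 3.11.15) in the 6 libraries compared, with Benjamini-Hochberg adjustment over all genes, and the fit was tested on simulated data. The thresholds of the study were 0.005 for the adjusted p and 1 for the size of the log2 fold change. Depth was recovered from the step between FPKM values multiplied by mean transcript length (96.3% to 96.7% of low values whole within 0.05 reads). Alternatives were pseudocounts of 0.1 and 5, no filter or a minimum of 5 FPKM, median-of-ratios scaling, a fit of all 9 libraries, a replicate block, voom on recovered reads, and each library left out. Named were the 10 genes, *Ptpn11*, list genes called or with the 3 largest changes (in part), overlapping genes and the 3 genes nearest in course. Members and lists were chosen with earlier results of these data known.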

Additional observations from a re-analysis of the deposited data

How the results depend on the processing

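The 15 alternatives left the count at the thresholds of the study at 0 of 10 genes in each comparison. At an adjusted p of at most 0.05 the count in SHP099 against WT was 2, and it was 1 with no filter (74 of all genes, 0.278%), 0 to 4 with a library left out and 2 with a replicate block. Leaving out the library of each group with the most fibroblast RNA, an alternative chosen after seeing the data, gave 0 (50 of all genes, 0.437%). In M-Shp2-/- against SHP099 the count was 0, and it was 0 to 5 with a library left out and 5 without the fibroblast-rich libraries (*Rela*, *Relb*, *Nfkbia*, *Nfkbiz* and *Bcl3*; 2054 of all genes, 17.9%). The adjusted p over the alternatives ran from 0.00691 to 0.104 for *Nfkb2* and from 0.011 to 0.0664 for *Bcl3* in SHP099 against WT, with log2 fold changes of -0.75 to -0.57 and -1.11 to -0.85. *Nfkb1* passed there with a minimum of 5 FPKM (0.0495) and with all 9 libraries in the fit (0.038), within a range of 0.038 to 0.294. In M-Shp2-/- against WT directions reversed for *Rela* (-0.13 scaled, -0.12 without the fibroblast-rich libraries, -0.04 to 0.19 with a library left out), *Relb* (-0.14, -0.09, -0.05 to 0.12) and *Nfkbie* (-0.14, -0.02, -0.10 to 0.15). In SHP099 against WT they reversed for *Nfkbia* (-0.14 to 0.11), *Nfkbib* (-0.21 to 0.07), *Nfkbie* (-0.02 scaled, -0.01 to 0.25) and *Nfkbiz* (-0.21 to 0.23) with a library left out. The cause was not tested. Replicates were not treated as paired, since the residuals of replicates of the same number correlated at -0.431 to 0.492, and with the replicate block all genes called numbered 2 in M-Shp2-/- against WT, 591 in SHP099 against WT and 0 in M-Shp2-/- against SHP099. With this replicate block *Cul1* was lost in SHP099 against WT (0.0736). No alternative changed the depth of the libraries.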
